A study of Mus musculus with 20 samples.

Results

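The genes described here are 10 imprinted genes that bear on embryonic growth, Igf2, H19, Dlk1, Peg3, Mest, Plagl1, Nnat, Slc38a4, Grb10 and Igf2r. They were chosen by name, as every probe set to which the platform annotation gives a single gene symbol, current or former, of the 10. That gave 17 probe sets of 9 genes, out of 20380 single-symbol probe sets of 12393 genes on the array, and H19 had none. The study measured RNA in primary mouse embryonic fibroblasts, the connective tissue cells that grow out of a dissociated embryo, on 1-colour Affymetrix arrays. The fibroblasts came from embryos at 13.5 days post coitum (dpc). The E2F4 null group had 10 cultures from 5 embryos, 2 from each, and the wild type group had 10 cultures from 3 embryos, with 3, 3 and 4 cultures. The sample titles hold a pair of numbers, which were read as embryo and culture from the submitters' design text. The null allele, the strain and any litter or passage are not given in the labels, so that nothing beyond the genotype, the age and the cell type describes either group.

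Imprinted genes are transcribed mainly from the copy inherited from 1 parent, in most cases owing to methylation marks laid down in the egg or sperm. In mouse genetics Igf2, Dlk1, Peg3, Mest, Plagl1, Nnat and Slc38a4 are read from the paternal copy, and H19, Igf2r and, outside neurons, Grb10 from the maternal copy. Many of the paternally expressed genes promote fetal growth and several of the maternally expressed genes restrain it. IGF2 is a fetal growth factor, IGF2R takes it up for degradation in lysosomes, and GRB10 is an adaptor that dampens insulin and IGF receptor signalling. E2F4 is a transcription factor that works mostly as a repressor of cell cycle genes together with the retinoblastoma-related proteins. The arrays measure RNA from both copies together, so they do not show which allele was expressed.

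RefSeq promoter windows of GRCm38.p6, each 300 bases long from 250 bases before to 50 after an annotated start, were matched by symbol for 9 of the 10 genes, 17 windows in all. They were searched on both strands for 4 E2F words, TTTCCCGC, TTTCGCGC, TTTGCCGC and TTTGGCGC, and for the word GGGGCCCC, a palindrome of the kind bound by PLAGL1. An E2F word was in 1 of the 17 windows, that of Plagl1, and the PLAGL1 word was in 1, that of Peg3. Of all 32851 windows 2.26% held an E2F word and 1.08% the PLAGL1 word. None of the words overlaps another in these windows. Those of 3 genes are shown because Plagl1 and Peg3 hold the words and Dlk1, which holds neither, was the gene whose signal differed most between embryos. Capitals mark the words, and each window is written 5′ to 3′ on the strand of its gene. The Plagl1 window is chr10:13090582-13090881 on the plus strand, where TTTGCCGC lies on the minus strand with its first base in the window 90 bases before the start site. The Peg3 window is chr7:6730370-6730669 on the minus strand, with GGGGCCCC 201 bases before the start site. The Dlk1 window is chr12:109452573-109452872 on the plus strand.
Plagl1: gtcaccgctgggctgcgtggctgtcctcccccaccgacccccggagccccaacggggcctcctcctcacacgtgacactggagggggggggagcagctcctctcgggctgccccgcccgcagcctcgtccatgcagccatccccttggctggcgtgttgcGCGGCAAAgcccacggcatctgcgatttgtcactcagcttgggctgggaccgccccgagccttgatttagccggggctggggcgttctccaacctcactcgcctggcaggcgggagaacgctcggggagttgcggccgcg
Peg3: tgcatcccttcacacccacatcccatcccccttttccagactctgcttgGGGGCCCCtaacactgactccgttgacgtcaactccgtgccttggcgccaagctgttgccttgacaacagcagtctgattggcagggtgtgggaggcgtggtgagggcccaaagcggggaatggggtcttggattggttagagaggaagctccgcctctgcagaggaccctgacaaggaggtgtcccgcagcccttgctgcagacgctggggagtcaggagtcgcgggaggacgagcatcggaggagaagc
Dlk1: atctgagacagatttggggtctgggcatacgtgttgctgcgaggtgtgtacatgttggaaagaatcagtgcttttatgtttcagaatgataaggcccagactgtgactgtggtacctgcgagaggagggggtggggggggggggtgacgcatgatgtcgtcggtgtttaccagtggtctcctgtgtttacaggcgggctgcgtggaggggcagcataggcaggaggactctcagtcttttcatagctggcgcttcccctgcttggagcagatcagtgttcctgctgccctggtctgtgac

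The 2% trimmed mean of the signals was 500.2 on every array, and the median signal ran between 135 and 146. Arrays of the same embryo correlated at r = 0.986 to 0.992 across probe sets and arrays of different embryos at 0.948 to 0.990. E2f4 itself had embryo means between 155 and 196 in E2F4 null cultures, against 209 to 221 in wild type cultures, on its only probe set. All 5 null embryos were below all 3 wild type embryos, the log2 difference was -0.35 (SE 0.10) and it did not pass the test (limma adjusted p = 0.366). Where the probe set lies relative to the deleted part of the gene is not given in the sources used here, so this does not check the labels. All 10 fibroblast markers examined, Col1a1, Vim and Fn1 among them, were above the filter on low signals described next. Some of them varied widely between embryos. Pdgfra, which encodes a PDGF receptor, was at 197, 339, 908, 1109.6 and 1368 in the null embryos, against 852, 191 and 1199.5 in the wild type embryos. Dcn, which encodes the matrix protein decorin, was at 141, 91.3, 223, 318 and 243 in the null embryos, against 393, 99.3 and 408 in the wild type embryos.

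E2F4 null embryo 2 and wild type embryo 2 stood apart from the other embryos in several imprinted growth genes and in Acta1, so results that rest on them are given with and without them. Acta1, the skeletal muscle actin gene, had embryo means of 1149, 3143, 270.3, 235 and 211 in the null embryos 1 to 5, against 608, 3869.5 and 369.7 in the wild type embryos 1 to 3. The summed signal of 8 skeletal muscle markers ran between 453 and 3527 in null embryos and between 572 and 4298 in wild type embryos. Most of that sum was Acta1 itself in every embryo except null embryo 5, null embryo 2 and wild type embryo 2 included. Of the muscle markers only Acta1 and Des passed the filter. Myod1 and Myog, the defining transcription factors, were at 33.2 or below in all 8 embryos. The summed signal of 7 cell cycle genes such as Mki67 and Top2a was lowest in wild type embryo 2, at 8729.5, against 11232 to 14377 in the null embryos and 12547 and 14530 in the other wild type embryos. Xist, the RNA that silences an X chromosome in female cells, was at 47.1 and 30.5 in null embryos 2 and 3 and at 2218 or more in the other null embryos, against 37.9 in wild type embryo 2 and 2983 or more in the other wild type embryos. The part of muscle cells, of the cell cycle and of sex in the results below was not tested, and in bulk RNA fewer cells of a type and less RNA per cell cannot be told apart.

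A signal is the deposited MAS5 intensity of a probe set, which has no meaning across probe sets, and each value below is an embryo's mean over its cultures. Differences are E2F4 null minus wild type on log2(signal + 16). Genotypes were compared with limma across the 12228 probe sets whose mean signal was at or above the 40th percentile, 77.7, and 16 of the 17 probe sets of the imprinted genes passed that filter. The exception was 1450533_a_at of Plagl1, with a mean of 77.2. No imprinted growth gene passed the genotype test at an adjusted p under 0.05, 0 of 16 probe sets, and nor did any other probe set on the array, so that 0.0% were called. Without wild type embryo 2 the test called 13 probe sets, none of them of these genes. At an unadjusted p under 0.05 there were 2 of the 16, against 8.83% of all probe sets tested.

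Igf2 lies at chr7:142650768-142666816 (GRCm38.p6, RefSeq gene span) and has 2 probe sets. On 1448152_at the null embryos 1 to 5 had signals of 7723, 4753, 7711, 8067 and 8025, against 7040, 4675 and 6905 in the wild type embryos 1 to 3. Null embryo 2 and wild type embryo 2 were the lowest of their groups by a wide gap, the other null embryos were above all wild type embryos, and the groups overlapped. The means were 7256 ± 1409 in null embryos and 6207 ± 1328 in wild type embryos (SD, n = 5 and 3), which differ by 0.22 on the log2 scale (SE 0.20, limma adjusted p = 0.771). Without wild type embryo 2 the difference was 0.03, and without both low embryos it was 0.18 (adjusted p = 0.277). On 1415931_at the null embryos had 246, 142, 309, 220.4 and 349, against 284, 105 and 292 in the wild type embryos, and the same 2 embryos were lowest. That difference was 0.21 (SE 0.35, adjusted p = 0.887), and leaving out wild type embryo 2 turned it to -0.23. Over the other 6 embryos the deviations of the 2 probe sets from their genotype means had r = -0.03.

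Igf2 differed between embryos of 1 genotype well beyond the spread between cultures of an embryo. The test was an F test in limma with cultures as samples, and it covers culture and array error only. The adjusted p of 1448152_at was 1.3e-06 between null embryos and 3.4e-07 between wild type embryos, and of 1415931_at 7.7e-06 between null embryos and 2.8e-09 between wild type embryos. The 2 low embryos were left out because of their values on 1448152_at, so the loss of its difference without them describes that choice and is no further test. The F test then gave adjusted p = 0.902 between the remaining null embryos and 0.846 between the remaining wild type embryos. For 1415931_at the null embryos still differed (adjusted p = 0.00794) and the wild type embryos did not (adjusted p = 0.876).

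Igf2r, at chr17:12682406-12769706, encodes the receptor that clears IGF2. On 1424112_at the null embryos had signals of 1822, 1614, 1589, 1448 and 1546, against 1491, 1665 and 1385 in the wild type embryos. Null embryo 1 was highest, wild type embryo 3 lowest, and the groups overlapped. The means were 1604 ± 137 in null embryos and 1514 ± 141 in wild type embryos, a log2 difference of 0.08 (SE 0.09, 95% interval -0.12 to 0.28, limma adjusted p = 0.815). On 1424111_at the null embryos lay between 848 and 1004 and the wild type embryos between 769 and 969, with a difference of 0.02 (SE 0.10). Leaving out wild type embryo 3 or null embryo 1 turned that difference to -0.09 and -0.01. Only 1424111_at differed between wild type embryos (adjusted p = 0.00186), with wild type embryo 3 low, and neither probe set passed the F test between null embryos.

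Grb10, at chr11:11930499-12037428, had the smallest log2 range between embryos of the 16 tested probe sets, on 1425458_a_at. The null embryos had 5483, 5514, 5868, 5776 and 5953, against 5472, 5861 and 5538 in the wild type embryos. All 8 embryos fell in the same narrow band. The log2 difference was 0.02 (SE 0.05), with a 95% interval of -0.09 to 0.14, and it was -0.01 after quantile normalization. On 1425457_a_at the null embryos had 728, 812, 810, 845 and 941, against 804, 1053 and 879 in the wild type embryos, and wild type embryo 2 was highest. This was the only probe set of the 16 with a difference below 0, at -0.13 (SE 0.11, adjusted p = 0.743), and leaving out wild type embryo 2 gave -0.03. It differed between wild type embryos (F test adjusted p = 0.00846), which rested on embryo 2 (adjusted p = 0.461 without it and null embryo 2). On 1430164_a_at the null embryos lay between 268 and 368 and the wild type embryos between 290 and 322, a difference of 0.05 (SE 0.10) that was -0.003 without null embryo 4. Probe sets ending in a_at read several transcripts of a gene, so the 3 may not weigh the Grb10 isoforms alike.

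Plagl1, at chr10:13090832-13131694, encodes a zinc finger transcription factor that in mouse regulates other imprinted genes. On 1426208_x_at the null embryos had signals of 2657, 2478, 3672, 3802 and 3748, against 2936, 2771 and 3098 in the wild type embryos. Null embryos 1 and 2 lay below every wild type embryo and null embryos 3 to 5 above every wild type embryo. The means were 3271 ± 647 in null embryos and 2935 ± 164 in wild type embryos, and the log2 difference of 0.13 (SE 0.15) did not pass the test (adjusted p = 0.834). Null embryos differed from each other (F test adjusted p = 1.1e-05, and 0.0018 without null embryo 2 and wild type embryo 2), and the F test between wild type embryos did not pass (adjusted p = 0.124). The second probe set, 1450533_a_at, lay just under the filter, with 54.2 to 116 in null embryos and 58.7 to 82.6 in wild type embryos. Its deviations correlated at only r = 0.30 with those of 1426208_x_at, whose x_at ending marks probes that may also match other transcripts.

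Dlk1, at chr12:109452485-109463336, encodes a membrane-bound and shed protein of preadipocytes and fetal mesenchyme that holds back adipocyte differentiation. It had the widest range between embryos of all the imprinted growth genes. The null embryos had 279, 329, 623, 962 and 704, against 505, 118 and 758 in the wild type embryos. Null embryo 4 was highest and wild type embryo 2 lowest, and the wild type range spanned all but 1 of the null embryos. The highest embryo was 3.44 times the lowest among null embryos and 6.41 times among wild type embryos, while cultures of an embryo differed less, with 989.9 and 935 in null embryo 4, 513 and 732 in null embryo 3 and 147, 87.0 and 121 in wild type embryo 2. The F test over cultures gave an adjusted p of 7.2e-07 between null embryos and 3.3e-11 between wild type embryos, and without null embryo 2 and wild type embryo 2 it gave 2.0e-06 between null embryos and 0.00141 between wild type embryos. The means were 579.5 ± 281 in null embryos and 460.4 ± 322 in wild type embryos, and the log2 difference of 0.52 (SE 0.58, 95% interval -0.79 to 1.83) did not pass the test (adjusted p = 0.825). Without wild type embryo 2 the difference turned to -0.23.

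**Figure D1:**
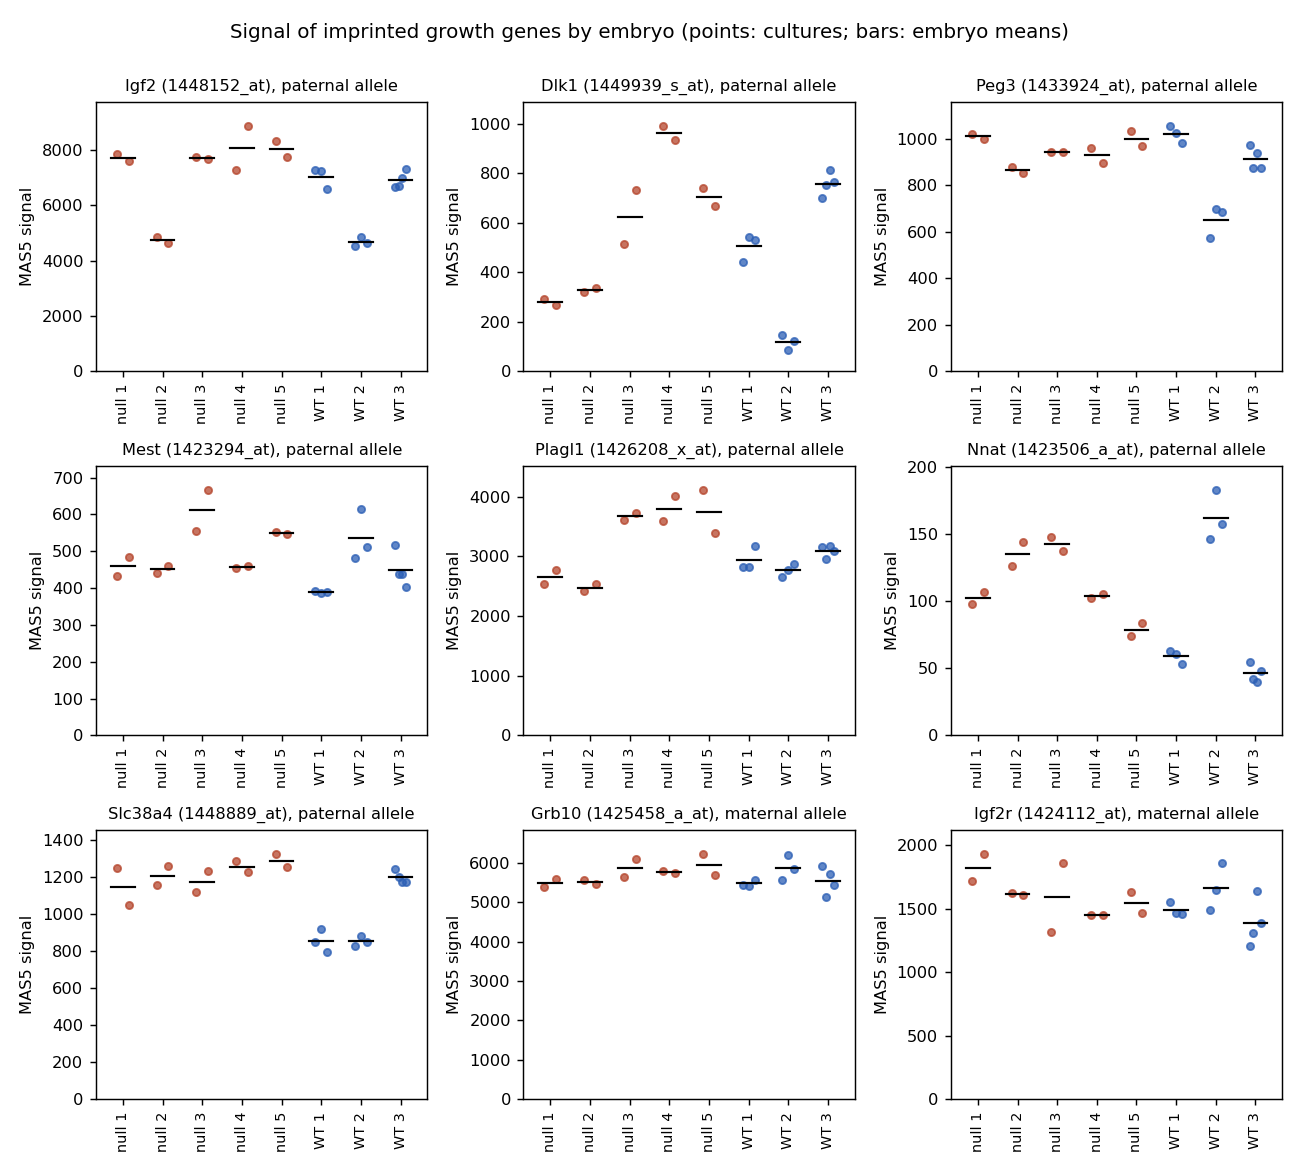
MAS5 signal of 9 imprinted growth genes, each on its probe set with the highest mean signal, by embryo (null 1 to 5, then WT 1 to 3). Points are cultures and bars are embryo means. Igf2 was low in null 2 and WT 2, Dlk1 ran between 118 and 962, and Grb10 stayed between 5472 and 5953.

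Peg3, at chr7:6703892-6730462, encodes a zinc finger protein and has 3 probe sets. On 1433924_at the null embryos had 1011, 867, 942, 929 and 1001, against 1020.5, 652 and 915 in the wild type embryos. Wild type embryo 2 was the lowest of the 8 by a wide gap, and all null embryos fell inside the wild type range. The log2 differences of the 3 probe sets were 0.16 (SE 0.13), 0.28 (SE 0.17) and 0.09 (SE 0.21), with limma adjusted p between 0.678 and 0.924. Without wild type embryo 2 they were -0.03, 0.06 and -0.09. Deviations of the 3 probe sets correlated with each other at r = 0.77 to 0.93. All 3 differed between wild type embryos (adjusted p of 1.4e-06, 9.7e-06 and 0.0144), and none of them did without null embryo 2 and wild type embryo 2 (adjusted p of 0.0954, 0.811 and 0.634).

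Mest, at chr6:30733506-30748466, encodes an enzyme of the hydrolase family and is expressed in embryonic mesoderm. The null embryos had 459, 451, 611, 457 and 549, against 389.9, 535 and 448 in the wild type embryos. Unlike Igf2 and Peg3, it was highest among wild type embryos in embryo 2 and lowest in embryo 1. The log2 difference was 0.14 (SE 0.13, adjusted p = 0.783), and leaving out single embryos moved it between 0.04 and 0.26. Embryos differed in both genotypes (adjusted p = 0.0292 between null embryos and 0.00371 between wild type embryos). Without null embryo 2 and wild type embryo 2 the F test gave 0.0413 between null embryos and 0.178 between wild type embryos.

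Nnat, at chr2:157560078-157562525, encodes a small membrane protein of the endoplasmic reticulum that is best known in brain. Its signals were near the filter, with 102, 135, 142, 104 and 78.6 in the null embryos, against 58.7, 162 and 46.2 in the wild type embryos. Wild type embryo 2 was the highest of all 8 and the other wild type embryos were below every null embryo. The log2 difference was 0.43 (SE 0.32, adjusted p = 0.730). Leaving out wild type embryo 2 gave 0.89 (adjusted p = 0.204), again not past the threshold. Embryos differed in both genotypes (adjusted p = 0.00897 between null embryos and 1.9e-08 between wild type embryos). With both number 2 embryos left out, the null embryos passed the test (adjusted p = 0.0373) and the wild type embryos did not (adjusted p = 0.203).

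Slc38a4, at chr15:96994816-97055956, encodes an amino acid transporter of placenta and liver, and had the smallest p-values of the genotype test among these genes. On 1448889_at the null embryos had 1148, 1207, 1174, 1255 and 1287, against 855, 852 and 1198 in the wild type embryos. Wild type embryos 1 and 2 were below every null embryo, and wild type embryo 3 was inside the null range. The means were 1214 ± 56.9 in null embryos and 968 ± 199 in wild type embryos, a log2 difference of 0.34 (SE 0.11, 95% interval 0.08 to 0.59) with an unadjusted limma p of 0.0147 and an adjusted p of 0.439. On 1428111_at the null embryos had 849, 971, 1219, 977 and 1128, against 701, 556 and 1060 in the wild type embryos. Its difference was 0.45 (SE 0.19), with an unadjusted p of 0.0450 and an adjusted p of 0.552. Both stayed above 0 with any single embryo left out, between 0.26 and 0.50 on 1448889_at and between 0.24 and 0.70 on 1428111_at. The wild type embryos differed from each other on both probe sets (adjusted p of 3.7e-06 and 7.1e-09), and still did without null embryo 2 and wild type embryo 2 (adjusted p of 0.000161 and 3.4e-05).

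Set side by side by parental origin, all 11 tested probe sets of the paternally expressed genes had a difference above 0 and 4 of 5 of the maternally expressed genes did, against 48.9% of all probe sets tested. None of these passed the test, the 11 probe sets belong to 7 genes, and probe sets of a gene share their RNA. The median difference was 0.22 for the paternally expressed and 0.02 for the maternally expressed genes, and -0.004 for all probe sets tested. The maternally expressed genes here are Grb10 and Igf2r alone. The probe set shared by H19, maternally expressed, and Mir675 is not among them, and its untested difference was 0.25. Without wild type embryo 2, 7 of the 11 paternal probe sets were above 0 and the median was 0.06, and 4 of the 5 maternal probe sets were above 0 with a median of 0.08, against 48.3% of all. With the embryo number as a block, 9 of the 11 and 3 of the 5 were above 0. In 0 of the 16 probe sets did the null embryos lie apart from the wild type embryos, against 6.5% of all probe sets tested.

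**Figure D2:**
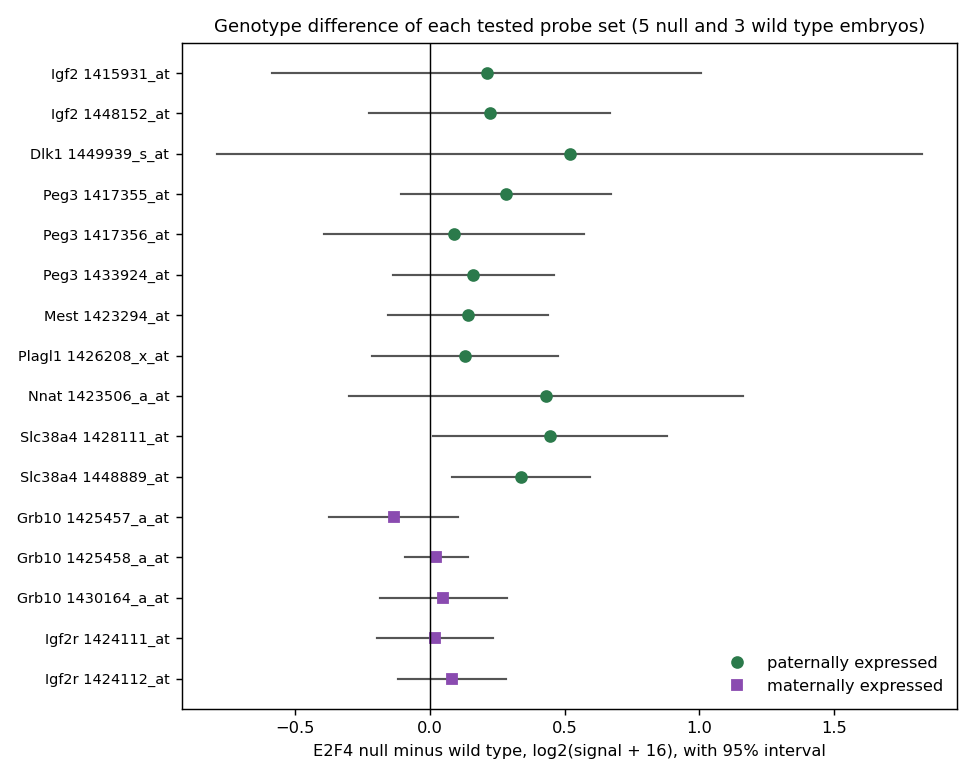
Difference between genotypes, E2F4 null minus wild type on log2(signal + 16), of the 16 tested probe sets, with the 95% interval from limma (5 null and 3 wild type embryos). Circles are paternally expressed genes and squares maternally expressed genes. The circles lie between 0.09 and 0.52 and the squares between -0.13 and 0.08, and the intervals of both Slc38a4 probe sets alone leave out 0 before adjustment.

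Most paternally expressed growth genes differed between embryos of 1 genotype. Of the 16 probe sets, 9 differed between null embryos, where 24.1% of all probe sets tested did, and 12 between wild type embryos, where 48.0% did. In both genotypes 8 of the 16 differed, against 19.4%. Of the 11 paternal probe sets 9 differed between null embryos and 10 between wild type embryos. Of the 5 maternal probe sets 0 differed between null embryos and 2 between wild type embryos, 1 each of Grb10 and Igf2r. The probe set shared by H19, maternally expressed, and Mir675 is not among these, and its signals were low in null embryo 2 and wild type embryo 2. The median distance from the lowest to the highest embryo was 0.61 log2 units among null embryos and 0.64 among wild type embryos for the paternal probe sets, and 0.33 and 0.27 for the maternal ones. Over all probe sets tested it was 0.32 among null embryos and 0.29 among wild type embryos, near the maternal values, and the spread between cultures of an embryo was about 0.12 for either set.

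Without null embryo 2 and wild type embryo 2, 6 of 16 probe sets differed between null embryos, where 14.7% of all did, and 4 of 16 between wild type embryos, where 13.7% did. The shares over all probe sets fell too, with fewer embryos compared, and this alternative was chosen after the values were seen. The 6 were Dlk1, Plagl1, Mest, Nnat, Igf2 1415931_at and Slc38a4 1428111_at, and the 4 were Dlk1, both probe sets of Slc38a4 and Igf2r 1424111_at. Both embryos were singled out for low values of these genes, so the counts that follow describe that choice and are no test. In null embryo 2, 10 of the 11 paternal probe sets were below the null mean, with a median deviation of -0.31. Of all 12228 probe sets tested, 6533 were below it there. In wild type embryo 2, 9 of 11 were below the wild type mean, with a median of -0.37, against 6319 of all. The maternal probe sets had medians of -0.02 in null embryo 2 and 0.11 in wild type embryo 2, and all probe sets tested -0.01 in both. Wild type embryo 2 was the lowest of the 8 embryos for 7 of the 16 probe sets, where 24.1% of all were lowest there. The 7 belong to Igf2, Dlk1, Peg3 and Slc38a4, all paternal. The probe set shared by H19 and Mir675, not among the 16, was also lowest there. Wild type embryo 2 was the highest for 2, Nnat and Grb10 1425457_a_at, where 22.3% were. Null embryo 2 was the lowest null embryo for 7 of the 16, where 27.2% of all were.

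**Figure D3:**
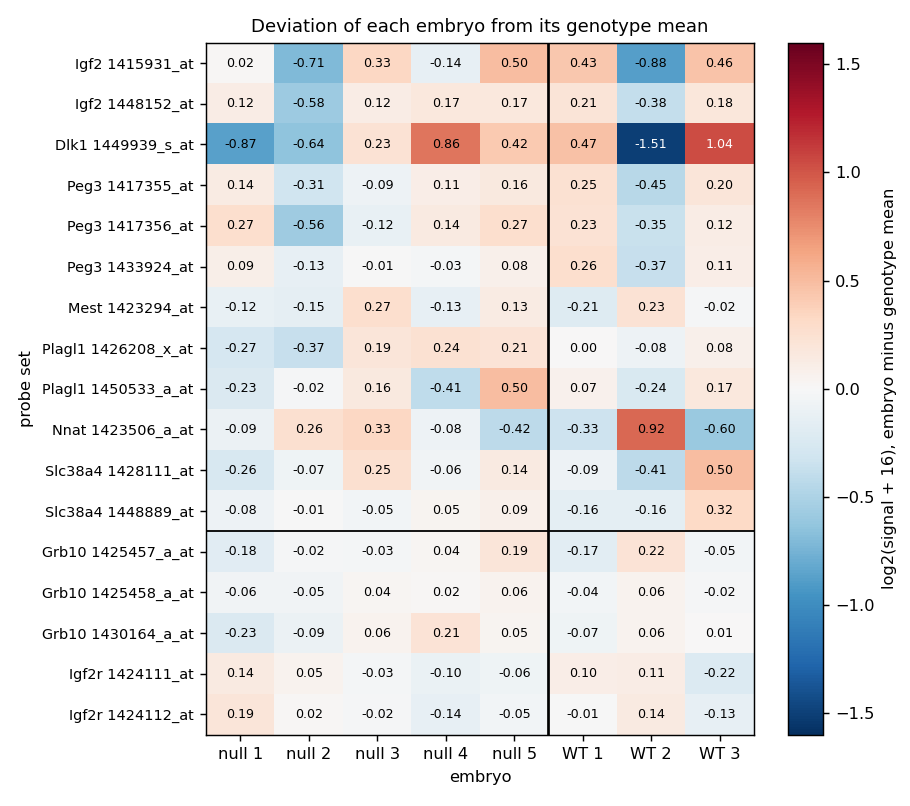
Deviation of each embryo from the mean of its genotype, in log2(signal + 16), for all 17 probe sets, with paternally expressed genes above the horizontal line and the null embryos left of the vertical line. Blue is below and red above the mean. Igf2, Dlk1 and Peg3 are blue in null 2 and WT 2, Nnat is red in WT 2 (0.92), and Grb10 and Igf2r, the maternally expressed genes with a single-symbol probe set, stay between -0.23 and 0.22.

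Co-movement across embryos was measured on deviations from the genotype mean, for all 36 pairs of the 9 genes, each gene on its probe set with the highest mean signal. No pair passed an adjusted p under 0.05 in a two-sided exact permutation test over the 720 orders within genotypes. Its smallest possible p is 0.00139, so that a single pair among 36 cannot fall under the threshold. At an unadjusted p under 0.05 there were 5 pairs, and 2 without wild type embryo 2. Of the 21 pairs of paternally expressed genes 12 had a positive r, and of all 36 pairs 18 did. Correlations within a genotype are not given, since 5 and 3 embryos are too few.

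Dlk1 and Igf2r had the r farthest from 0. It was -0.91 and Spearman's rho -0.88 over 8 embryos (exact permutation p = 0.00139 and 0.00694, adjusted p = 0.05 and 0.15), and r was -0.90 without null embryo 1 and wild type embryo 2, the embryos farthest from the Dlk1 median. Of all probe sets tested, 3.58% had an r with Dlk1 at least as far below 0 and 1.54% had one with Igf2r. The Igf2r probe set of this pair, 1424112_at, passed the F test between embryos in neither genotype. Its F test adjusted p was 0.397 between null embryos and 0.111 between wild type embryos. Dlk1 and Plagl1 had r = 0.71 and rho = 0.64 (exact permutation p = 0.00694 and 0.0236, adjusted p = 0.125 and 0.213), and r was 0.91 without the same 2 embryos. Of all probe sets 21.2% had an r with Dlk1 as far above 0 and 12.9% one with Plagl1. Neither pair passed the test.

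**Figure D4:**
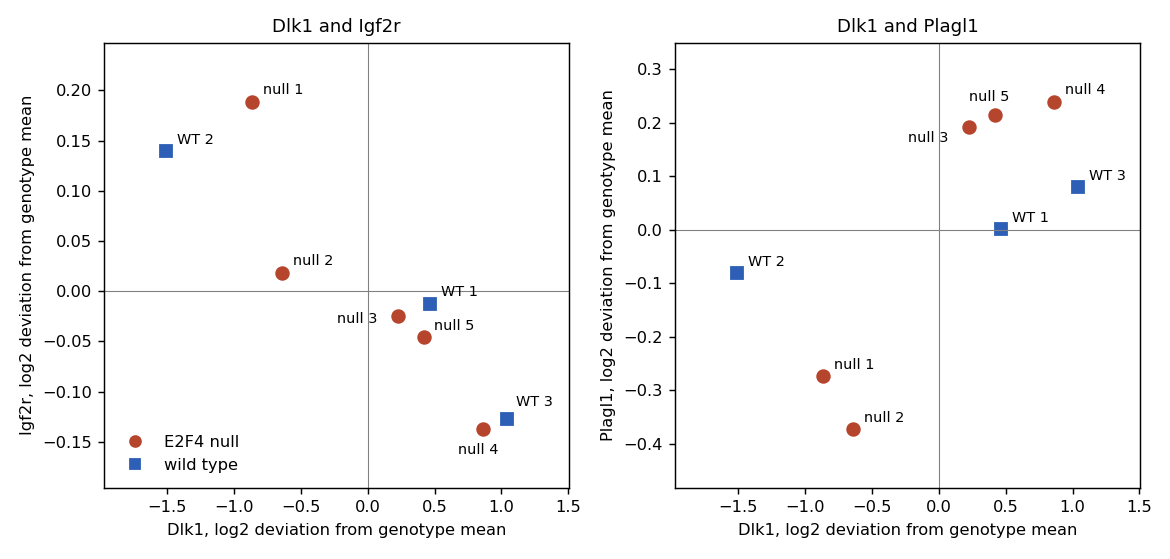
Deviation of Dlk1 from its genotype mean (x axis, log2) against that of Igf2r (left) and Plagl1 (right), for 5 E2F4 null embryos (circles) and 3 wild type embryos (squares). Igf2r is lower in embryos with higher Dlk1 (r = -0.91), over a span of 0.33 log2 units among null embryos, and Plagl1 is higher in them (r = 0.71). The Igf2r probe set shown did not pass the F test between embryos of either genotype.

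Plagl1 and Igf2r had r = -0.69 and rho = -0.86 (exact permutation p = 0.0264 and 0.00833, adjusted p = 0.22 and 0.15), and Plagl1 and Slc38a4 r = 0.34 and rho = 0.50 (p = 0.0986 and 0.0708, adjusted p = 0.296 and 0.305). Of all probe sets 12.9% had an r with Plagl1 as far below 0 as the first pair, and 16.9% one with Igf2r. As far above 0 as the second pair were 36.9% with Plagl1 and 31.2% with Slc38a4. Without null embryos 1 and 2, the farthest from the Plagl1 median, r was -0.98 and 0.85, so that the second value depended on those embryos. With the mean of all probe sets of a gene Plagl1 and Slc38a4 had r = 0.64 (exact permutation p = 0.0153, adjusted p = 0.183), an alternative given for this pair alone. For Plagl1 that mean takes in 1450533_a_at, which lay under the filter and whose deviations correlated at r = 0.30 with those of 1426208_x_at. Mest and Grb10 had r = 0.83 and rho = 0.71 (exact permutation p = 0.0528 and 0.0792, adjusted p = 0.296 and 0.305), with r = 0.75 without null embryo 3 and wild type embryo 2. The Grb10 probe set used, 1425458_a_at, passed the F test between embryos in neither genotype. Its F test adjusted p was 0.517 between null embryos and 0.283 between wild type embryos. Peg3 and Nnat had r = -0.88 and rho = -0.81 (exact permutation p = 0.0736 and 0.0764, adjusted p = 0.296 and 0.305), with r = -0.40 without wild type embryo 2. Both pairs are named after their values were seen. Igf2 falls into 2 clusters of embryos, null embryo 2 and wild type embryo 2 against the other 6, and no r over all 8 is given for it with another gene. Within the other 6 embryos its r was 0.53 with Plagl1, 0.57 with Dlk1, 0.13 with Peg3 and -0.54 with Igf2r. These r were not tested. The Igf2 probe set used, 1448152_at, passed the F test between those embryos in neither genotype. Its F test adjusted p was 0.902 between the null embryos left and 0.846 between the wild type embryos left, so no conclusion is drawn from these r.

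**Figure D5:**
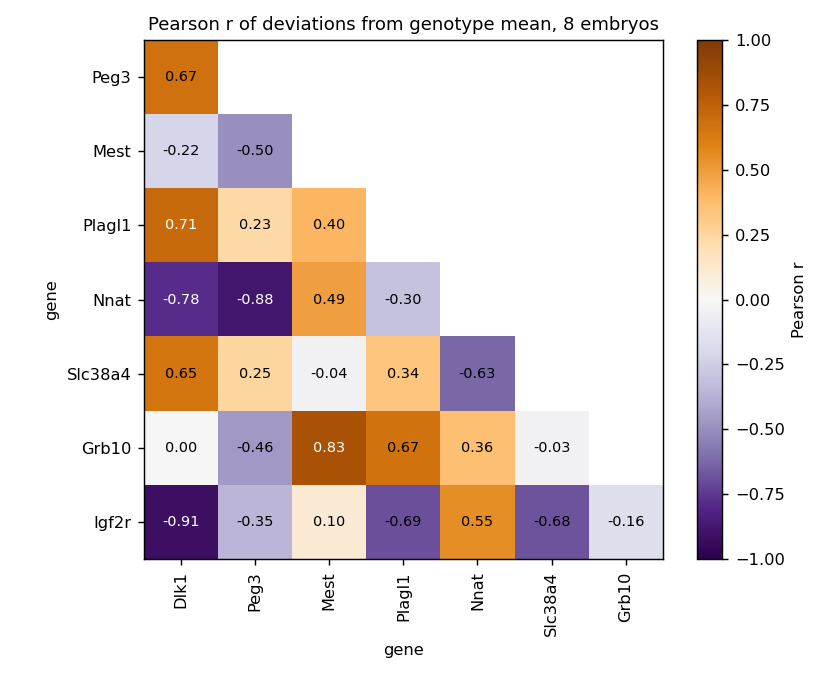
Pearson r between deviations from the genotype mean over 8 embryos, for 8 imprinted growth genes on their probe sets with the highest mean signal. Orange is positive and purple negative. Igf2 is left out because its embryos fall into 2 clusters. Dlk1 with Igf2r (-0.91) is the farthest below 0 and Mest with Grb10 (0.83) the farthest above. The Igf2r and Grb10 probe sets used did not pass the F test between embryos of either genotype.

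The non-member genes whose deviations were most like those of Dlk1 were Arhgap21, Rbm14 and Pclaf, each with r = 0.996 over 8 embryos and between 0.987 and 0.996 without null embryo 2 and wild type embryo 2. These 3 were chosen by r over all 8 embryos, so the r over part of those embryos is no further test. Pclaf is a PCNA-binding factor of replicating cells. Of 12212 probe sets compared, 830 had an r of 0.9 or more with Dlk1. The mean deviation of the 7 cell cycle genes was -0.19, -0.19, 0.05, 0.17 and 0.15 in the null embryos, where that of Dlk1 was -0.87, -0.64, 0.23, 0.86 and 0.42, and it was 0.10, -0.41 and 0.30 in the wild type embryos, where that of Dlk1 was 0.47, -1.51 and 1.04. Dlk1 was thus low in the embryos with low cell cycle signal, and the part of cell cycle in it was not tested. The summed signal of 4 adipocyte markers was 264, 300.1, 392, 468 and 431 in the null embryos, against 289.5, 337 and 522 in the wild type embryos. Adipoq, which marks mature adipocytes, was at 10.96 or below in all embryos, and the part of such cells was not tested either. Of the fibroblast markers Pdgfra, Dcn and Thy1, like Dlk1, were lower in null embryos 1 and 2 than in null embryos 3 to 5. They were also lowest among wild type embryos in embryo 2. Col1a1, Col1a2, Vim and Fn1 went the other way, higher in null embryos 1 and 2 and highest among wild type embryos in embryo 2. Fn1 was at 16093, 15634, 11587, 11201 and 11413 in the null embryos, against 14422, 16590 and 13532 in the wild type embryos. Col3a1, Pdgfrb and S100a4 followed neither pattern, and the part of these markers was not tested. The genes most like Igf2 were Pxn, which encodes the focal adhesion protein paxillin, the histone-binding protein gene Rbbp4 and the heat shock protein gene Hsph1, chosen by r over all 8 embryos. All 3 were lowest in null embryo 2 among null embryos and in wild type embryo 2 among wild type embryos. Within the other 6 embryos their r with Igf2 was 0.56, -0.14 and 0.03, a calculation added after the values were seen. Igf2 on 1448152_at, the probe set used, passed the F test between those embryos in neither genotype.

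A further 43 imprinted genes were listed, of which 35 had a single-symbol probe set and 18 passed the filter. Several of them are imprinted in some tissues only, and whether they are imprinted in these fibroblasts was not measured. None passed the genotype test, 1 had an unadjusted p under 0.05, and 8 differences were above 0 and 10 below, with a median of -0.04. The 4 paternally expressed ones that passed the filter were all above 0 with a median of 0.04, and of the 13 maternally expressed ones 3 were above 0 and 10 below, with a median of -0.10. The smallest p-values were those of H13, a signal peptide peptidase gene, at 1291 ± 176 in null embryos and 1593 ± 148 in wild type embryos (log2 difference -0.30, SE 0.12, limma adjusted p = 0.486), and Osbpl5, an oxysterol-binding protein gene, at 333 ± 42.1 in null embryos and 399.8 ± 53.3 in wild type embryos (-0.25, SE 0.12, adjusted p = 0.589). Between null embryos 7 of the 18 differed, against 24.1% of all probe sets tested, and between wild type embryos 11, against 48.0%. Of the 4 paternally expressed ones 1 differed between null embryos and 2 between wild type embryos. Of the 13 maternally expressed ones 5 differed between null embryos and 8 between wild type embryos. This split by parental origin thus did not follow that of the imprinted growth genes above. Wild type embryo 2 was the lowest of 8 for 1 of the 18 and the highest for 5, against 24.1% and 22.3% of all.

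Of 18 genes that act with IGF2, such as receptors, binding proteins and signalling adaptors, 14 passed the filter and none passed the genotype test. The differences were above 0 for 5 and below 0 for 9, with a median of -0.04. Grb14, an adaptor related to Grb10, had 729 ± 81.0 in null embryos and 1018 ± 261 in wild type embryos (-0.45, SE 0.16, limma adjusted p = 0.477), the only one with an unadjusted p under 0.05. Igfbp2, a secreted IGF-binding protein gene, had 1051 ± 417 in null embryos and 649 ± 363 in wild type embryos (0.79, SE 0.44, adjusted p = 0.648). Between null embryos 10 of the 14 differed, against 24.1% of all probe sets tested, and between wild type embryos also 10, against 48.0%.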

How the data were processed

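RNA of 20 cultures was hybridised to 1 array each. The authors deposited 1 linear signal intensity per probe set and array, and the submitters' processing notes name MAS5. Its version and scaling target, and any detection calls, were not given in the sources. The equal trimmed means show that the authors had scaled the arrays to a common mean before deposit, and they were not rescaled, so that a change shared by all genes would not be seen. There were 22690 probe sets, 64 of them controls. Of the others 20380 had 1 gene symbol in the platform annotation, 691 had several and 1555 were unlisted. Current symbols came from RefSeq (GRCm38.p6) by gene identifier, which was found for 20351 of the 20380. The probe set that reads H19 is also assigned to a second gene and gave H19 no value.

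The analysis used log2(signal + 16), with 16 as the rounded 20th percentile of the signals, and took the mean of each embryo's cultures, since the embryo is the replicate. Fold changes on this scale understate the change of low genes, and the number of arrays and embryos limits the precision. Single-symbol probe sets at or above the 40th percentile of mean signal were tested with limma 3.58.1 in R 4.3.3 (lmFit, eBayes with trend, two-sided), adjusted by Benjamini-Hochberg over all 12228. Embryos within a genotype were compared by limma's F test over cultures, all 20 sharing one residual spread. In data simulated with changes in 200 probe sets the genotype test found 33 of 67 log2 changes of 0.5, 60 of 67 of 1 and 61 of 66 of 2, with 9 false calls. The simulated errors were normal and independent, and the changed probe sets were picked at random. The paternal probe sets varied more between embryos than most, so these numbers do not give the recovery for them.

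Named genes were all members with all probe sets; E2f4; pairs past the threshold and set pairs of Igf2, Igf2r, Plagl1, Dlk1 and Slc38a4; the 2 with the smallest p per further list; and the 3 most like Igf2 and Dlk1. The members and lists were chosen with earlier results of these data known. Alternatives were other pseudocounts, filters, normalizations, 1 probe set per gene, a fit on cultures with a random embryo block, replicate blocks and leaving out embryos. Deviations of embryos of the same number in the null and wild type groups had r = 0.104, 0.613 and 0.407 across probe sets for the numbers 1, 2 and 3. Embryos of different numbers were not compared in this way, so these r do not show that the number matters. No label says that the number marks a shared litter or day. For cultures of the same number r lay between -0.26 and 0.25.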

Additional observations from a re-analysis of the deposited data

Results flagged for a closer look

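Igf2 on 1448152_at in E2F4 null embryo 2 had a signal of 4753, against 7711 to 8067 in the other 4 null embryos. It was taken up because its gap to the next null embryo was 92.3% of the range of the 5 null embryos. Chance alone takes up about 1 group in 20 in this way. Groups of 3, as the wild type embryos are, were not examined so, although wild type embryo 2, at 4675, was as low.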

How the results depend on the processing

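No probe set of the imprinted growth genes passed the genotype test in any of the alternatives run. Over all probe sets the test called 0, and it called 1 at a pseudocount of 64, with the filter at the 60th percentile or with 1 probe set per gene, 105 (34 higher and 71 lower in null) with the embryo as a random block, and 13 without wild type embryo 2 and null embryo 2 together, an alternative chosen after the values were seen. With the embryo number as a replicate block it called 0, and that block changed no call of these genes. With the culture number as a replicate block, which treats cultures as samples, it called 312 (124 higher and 188 lower). Leaving out single embryos gave 0 to 13 calls, the 13 without wild type embryo 2. The F test called 1797 probe sets between null embryos without null embryo 2 and wild type embryo 2, against 2948 with them, and 1676 between wild type embryos, against 5870, fewer embryos being compared. Genotype differences that changed sign were all within their error, and the cause was not tested. Leaving out single embryos gave -0.23 to 0.44 for Igf2 1415931_at, -0.23 to 1.04 for Dlk1, -0.087 to 0.23 for Peg3 1417356_at, -0.026 to 0.29 for Peg3 1433924_at, -0.0028 to 0.11 for Grb10 1430164_a_at and -0.087 to 0.078 for Igf2r 1424111_at. Without both embryos Igf2 1415931_at was at -0.054 and Dlk1 at -0.075. The embryo number as a block gave -0.050 for Peg3 1417356_at, -0.019 for Plagl1 1426208_x_at and -0.037 for Grb10 1430164_a_at, and quantile normalization -0.014 for Grb10 1425458_a_at. The pair test called 0 pairs in every alternative run for it, which says nothing of stability, since a single pair cannot reach the threshold with so few orders. Signals near the filter, those of Nnat and Plagl1 1450533_a_at, cannot be split into expressed and background.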

Other observations

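The only probe set that reads H19, 1448194_a_at, is annotated to H19 and Mir675 together, so its signal was assigned to neither gene. It was 10440, 6347, 11516, 11854 and 12075 in the E2F4 null embryos 1 to 5, against 9652, 5980 and 10875 in the wild type embryos 1 to 3. Null embryo 2 and wild type embryo 2 were the lowest of their groups, as for Igf2 on 1448152_at. The means were 10446 ± 2376 in null embryos and 8835 ± 2547 in wild type embryos (SD, n = 5 and 3), and the log2 difference was 0.25, with no test since the probe set has several symbols.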
